A study of Mus musculus with 8 samples.

Results

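The genes described here are 28 members of the cholesterol synthesis and SREBP pathway. They were found by their symbols among the 46078 genes of the deposited count table. Of these 28, 19 are enzymes that build sterols and isoprenoids. The other 9, called regulators below, encode or control the SREBP factors, carry sterols or degrade lipoprotein receptors. All 28 were in the table, and all 28 were among the 16495 genes with enough reads to test. The RNA came from Lgr5-traced mouse hair follicle cells, sorted by flow cytometry out of epidermis whose barrier had been injured. All mice were of the strain given as Lg5-egfp-ires-creert2/R26-tdTomato, so the Lgr5 locus drives a green fluorescent protein and a tamoxifen-dependent Cre, and the red reporter stays on in every cell that Cre has marked and in its progeny. The groups were Treg-sufficient (regulatory T cells present, 4 libraries) and Treg-depleted (regulatory T cells removed, 4 libraries). Replicates 1 and 2 of each group belonged to experiment 1 and replicates 3 and 4 to experiment 2. All 8 libraries carried the treatment label skin injury, so the series as used here has no uninjured group. Not given in the sources used here are the way regulatory T cells were removed, the kind of injury, the time after it, the age of the mice and any pooling. No label ties a replicate to its own animal, so each p-value reflects the spread of these samples only, which may be partly technical.

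Library totals ran from 22330729 to 29975347 counts, and levels are normalised counts (CPM) on library sizes scaled by edgeR's TMM factors. The labelled cell type was checked against its markers: Lgr5 stood between 308 and 518 CPM, Krt5 between 6444 and 12981, Krt14 between 2325 and 8877 and Krt15 between 3369 and 7954 CPM, the latter 3 being keratins of basal and follicle stem cells. Markers of fat cells summed to at most 0.908 CPM and those of sebaceous gland cells, another lipid-making type of the follicle, to between 13.6 and 60.4 CPM. Marker sums were higher for fibroblasts (281 to 375 CPM), melanocytes (58.7 to 393 CPM) and upper differentiated epidermis (707.6 to 2216 CPM). Treg-sufficient replicate 2 and Treg-depleted replicate 2, both of experiment 1, held more Xist RNA (the transcript of the inactive X chromosome, 2713 and 72.0 CPM of the library total) than the other 6 libraries (0.967 to 2.26). Y-linked transcripts summed to 2.84 CPM in Treg-sufficient replicate 2 and to between 314 and 417 CPM in the other 7. The main results are therefore also given without these 2 libraries. In RNA from a bulk of sorted cells, fewer cells of a type and less RNA per cell cannot be told apart.

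Cells make cholesterol from acetyl-CoA through mevalonate, the isoprenoids, squalene and lanosterol. The transcription factors SREBP-1 and SREBP-2 start as membrane proteins of the endoplasmic reticulum. When sterols are scarce, the escort protein Scap carries them to the Golgi, where a pair of proteases releases the part that enters the nucleus and switches on the synthesis genes; when sterols are plentiful, the Insig proteins hold Scap back. Dividing cells need sterols for new membrane, and in the epidermis sterols are also part of the lipid barrier that injury breaks.

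SREBPs bind the sterol regulatory element, and many sterol genes carry a CCAAT box nearby, the site of the factor NF-Y. The RefSeq promoter table (GRCm38.p6) held 24 of the 28 members, and the 250 bases before each start site were searched on both strands. Only exact matches to the letters given were counted, with N as any base. A gene without a match may therefore hold a variant, or a site outside the window. TCACNCCAC, the form of the element with its leading T, was found in 1 of the 24 members, Hmgcs1, and in 1.22% of 27025 genes. The 8-base core CACNCCAC, which lies within the longer form, was found in 3 of the 24 (Hmgcs1, Insig1 and Acat2) and in 6.05% of all genes. CCAAT was found in 20 of the 24 members and in 37.5% of all genes. Mvk held the most CCAAT matches in a window, 5, and Mvd held 2 and no core. The windows of 3 genes are shown, in lower case with matches to the core and to the CCAAT box in capitals, and a match on the other strand appears as its reverse complement. Hmgcs1 is shown because it held the longer element, and Acat2 and Mvd were added after their values were seen, as genes with some of the lowest log2 fold changes.
Hmgcs1 (GRCm38.p6, chr13:119690101-119690350, plus strand): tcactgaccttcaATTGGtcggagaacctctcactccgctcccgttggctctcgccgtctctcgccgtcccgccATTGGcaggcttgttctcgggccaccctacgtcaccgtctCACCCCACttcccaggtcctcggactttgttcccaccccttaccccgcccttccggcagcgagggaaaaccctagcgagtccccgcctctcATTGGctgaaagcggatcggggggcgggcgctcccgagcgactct
Acat2 (GRCm38.p6, chr17:12960726-12960975, minus strand): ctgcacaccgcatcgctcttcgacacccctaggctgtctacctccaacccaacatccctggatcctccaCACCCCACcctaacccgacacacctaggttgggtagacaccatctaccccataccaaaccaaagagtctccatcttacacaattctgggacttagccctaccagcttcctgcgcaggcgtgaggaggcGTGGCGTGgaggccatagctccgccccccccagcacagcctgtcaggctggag
Mvd (GRCm38.p6, chr8:122443423-122443672, minus strand): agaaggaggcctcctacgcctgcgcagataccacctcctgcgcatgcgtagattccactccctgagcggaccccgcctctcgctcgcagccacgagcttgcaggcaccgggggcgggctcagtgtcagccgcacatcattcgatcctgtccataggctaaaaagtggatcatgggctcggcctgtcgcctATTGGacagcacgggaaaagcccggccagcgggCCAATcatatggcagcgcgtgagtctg
In Hmgcs1 the core starts 136 bases before the start site and the nearest CCAAT match 45 bases before it. In Acat2 the cores start 181 and 53 bases before the start site. In Mvd the CCAAT matches start 60 and 27 bases before it. These matches are descriptions of letters, not measured binding.

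The 28 genes were expressed at levels that differed widely. Per kilobase of exon, Hmgcs1, which condenses acetyl-CoA units into HMG-CoA, had the highest mean over the 8 libraries (70.3 CPM per kilobase), followed by Idi1, the isomerase that makes the reactive isoprene unit (46.3), and Srebf2, the gene of SREBP-2 (34.4). Ebp, a sterol isomerase late in the pathway, averaged 28.3, Srebf1, the gene of SREBP-1, 28.04 and the lanosterol demethylase Cyp51 27.9 CPM per kilobase. The ranges of the latter 3 over libraries overlapped, from 17.7 to 49.7 for Ebp, 23.7 to 33.1 for Srebf1 and 19.6 to 32.3 for Cyp51, so their order is not resolved. At the lower end stood the protease gene Mbtps2 (3.75), the sterol reductase Tm7sf2 (2.68) and Fdps, the farnesyl diphosphate synthase (1.97 CPM per kilobase). Another annotated gene on the same strand covers 2867 exon bases of Mbtps2, 532 of Tm7sf2 and 1124 of Fdps. Reads there may have been left out of the counts, so these levels may be too low. The length used was that of all annotated exons of a gene together. Where this exceeds the length of the transcripts present, the level per kilobase is also too low. Fdps and Tm7sf2 also had the lowest CPM, between 6.21 and 11.5 and between 9.97 and 12.9.

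**Figure D1:**
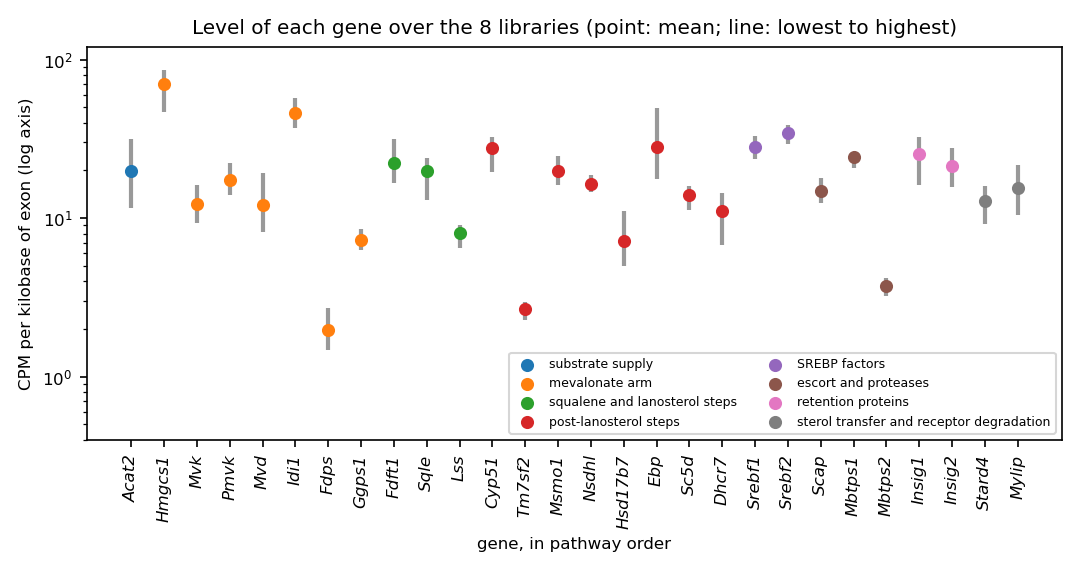
Mean level of each of the 28 genes over the 8 libraries, in CPM per kilobase of exon on a log axis, in pathway order; points are means, coloured by role, and lines run from the lowest to the highest library. Hmgcs1 and Idi1 stand highest at 70.3 and 46.3, and Fdps lowest at 1.97.

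Some of these counts are uncertain because reads that fit several places in the genome, or several annotated genes, were not counted. The shared sequence listed next includes exons of genes that overlap at the same locus, such as Gm43738 in Fdps and Ctsb in Fdft1. Of the 50-base stretches of its annotated transcripts, 39.1% in Acat2 also occur in another gene (its neighbours Acat3 and Tcp1), 28.9% in Mbtps2 (mainly Yy2, which lies within it), 26.5% in Fdft1 (Ctsb on the other strand, and Gm6781), 26.2% in Fdps (8 predicted genes) and 25.3% in Idi1 (5 predicted genes). The share was 11.6% in Hmgcs1, between 9.58 and 9.96% in Ggps1, Tm7sf2 and Scap, and at most 2.77% in the other 19 members. Whether counting used the strand is not stated, so reads of overlapping genes on opposite strands (Fdft1 and Ctsb, for example) may not be separated.

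The first comparison asks how the cells differed between mice with and without regulatory T cells after injury. By edgeR's quasi-likelihood test with the experiment as a term, 0 of the 28 members passed an adjusted p of 0.05, as did 0% of the 16495 genes. Log2 fold changes (Treg-depleted over Treg-sufficient) were below 0 for 21 of the 28 members and for 49.7% of all genes tested, with a median of -0.11 over the members and 0.002 over all genes. An unadjusted p under 0.05 was reached by 5 members, all with lower means in Treg-depleted libraries (3.62% of all genes), and by 0 members in the other direction (3.5% of all genes). DESeq2 called 84 genes (0.509%) and limma-voom 0, with 0 members by either. With no filter on low counts, edgeR called 3 members, Acat2 (adjusted p = 0.0091), Mvd (0.0033) and Fdft1 (0.046), against 2.97% of the 27611 genes then tested. Values were below 0 in 15 of the 19 enzymes (median -0.19) and in 6 of the 9 regulators (median -0.02). The difference between the groups was not tested. That the synthesis enzymes lean lower was known when these genes were chosen, so the count is a description and not independent evidence.

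**Figure D2:**
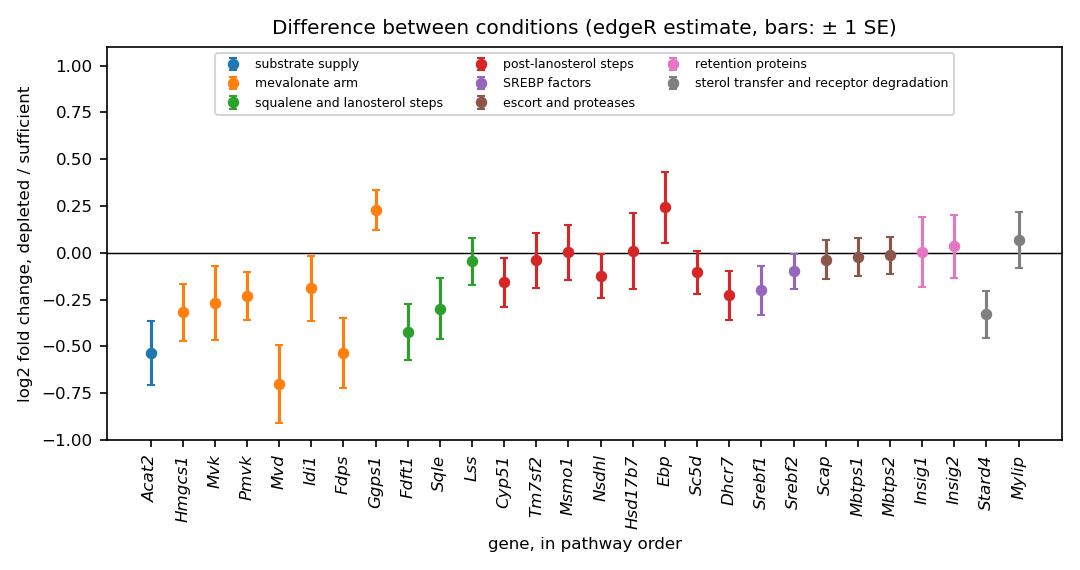
Log2 fold change of each member between conditions (Treg-depleted over Treg-sufficient, edgeR estimate with the experiment as a term), in pathway order; bars are ± 1 standard error and colours mark roles. The lowest estimate is Mvd at -0.70, the enzymes up to Sqle lie below 0 except Ggps1, and the escort, protease and Insig genes lie close to 0.

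Early in the pathway, Mvd, the decarboxylase that makes isopentenyl diphosphate, had the lowest estimate. Its levels were 33.3, 21.0, 36.0 and 21.3 CPM in Treg-sufficient replicates 1 to 4 and 17.1, 19.97, 15.1 and 16.7 CPM in Treg-depleted replicates 1 to 4. The highest Treg-depleted library lay narrowly below the lowest Treg-sufficient library, and Treg-sufficient replicates 1 and 3 stood well above the other 6. The log2 fold change was -0.70 ± 0.21 (SE; edgeR unadjusted p = 0.0088, adjusted p = 0.686). Fdps, which joins isoprene units into farnesyl diphosphate, also had groups that did not overlap, with 11.5, 7.96, 11.4 and 8.38 CPM against 6.60, 6.21, 7.40 and 6.81 CPM and a log2 fold change of -0.54 ± 0.19 (edgeR adjusted p = 0.686). Mvd and Fdps were the only 2 of 28 members whose Treg-depleted libraries all lay below all Treg-sufficient libraries, a pattern seen in 1.05% of all genes.

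Acat2, the cytosolic thiolase that supplies acetoacetyl-CoA, stood at 57.0, 43.3, 80.6 and 56.1 CPM against 29.4, 39.3, 40.6 and 54.5 CPM. Treg-depleted replicate 4 reached into the Treg-sufficient range, and within each experiment both Treg-depleted libraries were below both Treg-sufficient ones. Its log2 fold change was -0.53 ± 0.17 (edgeR adjusted p = 0.686). Hmgcs1 stood at 394, 281, 379 and 378 CPM against 213, 320.3, 312 and 304 CPM, a log2 fold change of -0.32 ± 0.15 (edgeR adjusted p = 0.696). The groups overlapped through experiment 1, where Treg-sufficient replicate 2 and Treg-depleted replicate 1 were each the low library of their group. Idi1 stood at 202, 129, 197 and 164 CPM against 131, 189.7, 136 and 150.3 CPM, with wholly overlapping groups and a log2 fold change of -0.19 ± 0.18. Of the other genes of this arm, the kinases Mvk and Pmvk had log2 fold changes of -0.27 and -0.23. Ggps1, which makes the geranylgeranyl diphosphate used to lipidate small GTPases and not to build sterols, had one of the 3 highest values among the members, 0.23 ± 0.11, with 29.7, 31.9, 30.4 and 35.5 CPM against 40.3, 35.3, 38.9 and 35.02 CPM.

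At the squalene steps, Fdft1, the synthase that commits farnesyl units to sterols, stood at 116, 81.9, 133 and 103 CPM against 70.4, 90.1, 78.3 and 83.3 CPM. Of its Treg-sufficient libraries only replicate 2 lay within the Treg-depleted range, and the log2 fold change was -0.42 ± 0.15 (edgeR unadjusted p = 0.0198, adjusted p = 0.686). Sqle, the squalene epoxidase and a controlled step of the pathway, stood at 133, 98.4, 132 and 121 CPM against 71.8, 119.6, 101 and 101 CPM, a log2 fold change of -0.30 ± 0.16. Treg-depleted replicate 1 was the low library and Treg-depleted replicate 2 stood near the Treg-sufficient values. Lss, which closes the rings to form lanosterol, had a log2 fold change of -0.05.

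After lanosterol the values over both experiments scattered around 0. Of the 8 genes of these steps, 5 had a log2 fold change below 0, with a median of -0.07. In the mevalonate arm 6 of 7 did, with a median of -0.27. The late steps differed by experiment, with 3 of 8 below 0 in experiment 1 (median 0.08) and 8 of 8 in experiment 2 (median -0.19). In the mevalonate arm 6 of 7 were below 0 in each experiment (medians -0.18 and -0.34). Whether the arms differ was not tested. Hsd17b7, a sterol ketone reductase, had a log2 fold change of 0.01 ± 0.20, with Treg-depleted replicate 2 at 56.3 CPM and the other 7 libraries between 25.3 and 43.5. Dhcr7, which makes cholesterol from 7-dehydrocholesterol, stood at 62.8, 55.5, 75.5 and 84.4 CPM against 39.4, 58.2, 69.7 and 71.7 CPM (log2 fold change -0.23 ± 0.13). The groups overlapped, and most of the spread lay between experiments.

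Among the regulators, Srebf1 stood at 186, 134, 187 and 169.7 CPM against 138, 167, 139 and 144 CPM (log2 fold change -0.20 ± 0.13), and Srebf2 at 256, 211, 278 and 277 CPM against 228, 223, 245 and 257 CPM (-0.10 ± 0.10). In both genes Treg-sufficient replicate 2 was the lowest of all 8 libraries. The escort gene Scap and the protease genes Mbtps1 and Mbtps2 had log2 fold changes between -0.04 and -0.01. Insig1, the retention protein that is itself an SREBP target, stood at 94.2, 50.1, 87.4 and 83.3 CPM against 74.7, 63.9, 99.9 and 78.7 CPM, with a log2 fold change of 0.004 ± 0.19 whose sign is not settled. Stard4, a soluble carrier that moves cholesterol between membranes, was the regulator with the lowest estimate, at 85.4, 58.2, 85.9 and 89.3 CPM against 51.6, 58.0, 74.3 and 71.4 CPM. Its log2 fold change was -0.33 ± 0.13 (edgeR unadjusted p = 0.029, adjusted p = 0.692), and within each experiment both Treg-depleted libraries were below both Treg-sufficient ones, in experiment 1 narrowly. Mylip, the ubiquitin ligase that destroys lipoprotein receptors, stood at 46.2, 63.4, 38.9 and 44.3 CPM against 70.0, 61.6, 33.6 and 42.4 CPM (log2 fold change 0.07 ± 0.15).

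**Figure D3:**
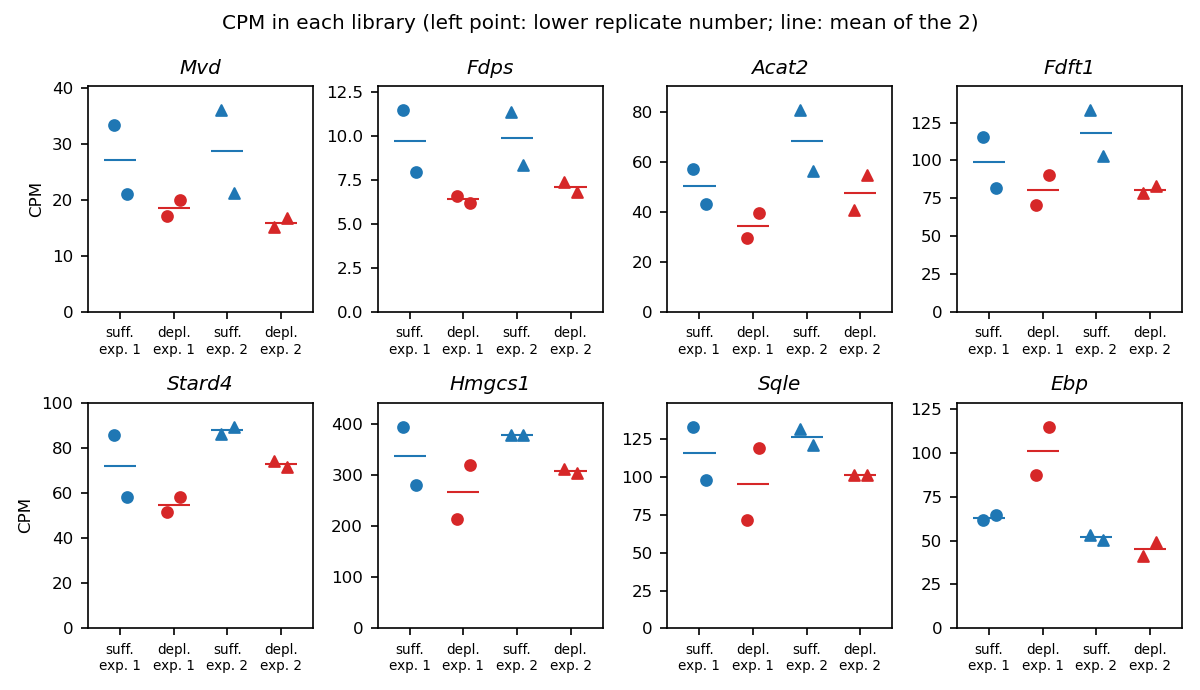
CPM of 8 members in each library, in panels that each start at 0; blue is Treg-sufficient, red Treg-depleted, circles experiment 1, triangles experiment 2 and lines the mean of the 2 libraries. In Mvd, Fdps, Acat2 and Stard4 the red points lie below the blue ones of the same experiment, in Hmgcs1, Sqle and Fdft1 this holds in experiment 2 only, and in Ebp the red points lie above in experiment 1 and below in experiment 2.

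Within each experiment the pattern differed in its order over libraries. In experiment 2, both Treg-depleted libraries lay below both Treg-sufficient libraries in 19 of the 28 members, against 15.9% of all genes, and 0 members showed the reverse, against 16.7% of all genes. Log2 fold changes were below 0 in 25 of 28 members (49.8% of all genes) with a median of -0.22, and in 18 of the 19 enzymes with a median of -0.27. Mvd (-0.85 ± 0.30) and Fdft1 (-0.55 ± 0.21) had an unadjusted p under 0.05, which 0.897% of all genes reached in this direction, and 0 members and 0% of genes passed the adjusted threshold. Sums over the enzymes were 1737 and 1610 CPM in Treg-sufficient and 1341 and 1390 CPM in Treg-depleted libraries of experiment 2, where the groups did not overlap. Reads in no annotated gene made up 6.70 and 8.98% of those listed in the former and 10.2 and 8.98% in the latter.

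In experiment 1 the sums over the enzymes divided by library and not by condition. Treg-sufficient replicate 1 and Treg-depleted replicate 2 had high enzyme sums (1718 and 1632 CPM), and Treg-sufficient replicate 2 and Treg-depleted replicate 1 low ones (1302 and 1216 CPM). The share of reads in no annotated gene was 8.48 and 6.63% in the former pair and 8.78 and 10.8% in the latter, and the number of genes with any count 21720 and 18605 against 22700 and 22896; the part of these library properties in the split was not tested. In 14 of the 28 members the former pair both lay above the latter pair, an order described after it was seen and found in 19.5% of all genes. The 14 were Hmgcs1, Mvk, Pmvk, Idi1, Fdft1, Sqle, Cyp51, Tm7sf2, Msmo1, Nsdhl, Hsd17b7, Sc5d, Dhcr7 and Srebf1. Only Acat2, Mvd, Fdps and Stard4 lay lower in both Treg-depleted libraries (4 of 28 members, 19% of all genes), and only Ebp and Ggps1 lay higher (2 of 28, 18.6% of all genes). Log2 fold changes were below 0 in 17 of 28 members (48% of all genes) with a median of -0.05, and 0 members passed the adjusted threshold against 0.606% of all genes. That median was 0.03 when Treg-sufficient replicate 1 was left out and 0.05 when Treg-depleted replicate 1 was left out. It was -0.23 with Treg-sufficient replicate 2 left out and -0.24 with Treg-depleted replicate 2 left out, so its sign depends on single libraries. Acat2, Mvd, Fdps and Stard4 were thus the 4 members that were lower within both experiments, where 3.23% of all genes were.

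**Figure D4:**
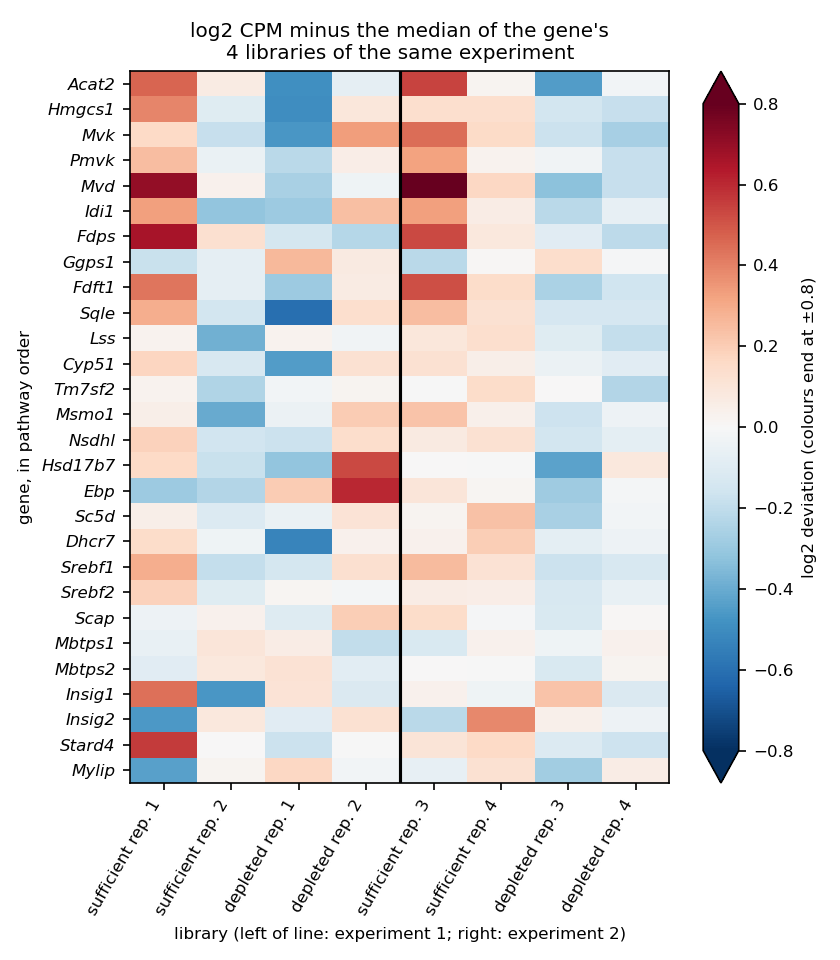
Log2 CPM of each member in each library minus the median of that gene's 4 libraries of the same experiment (red above, blue below, colours ending at 0.8); rows are genes in pathway order. In experiment 2 the columns divide by condition, with 24 and 23 of 28 genes below the median in the Treg-depleted libraries, and in experiment 1 Treg-sufficient replicate 1 and Treg-depleted replicate 2 are the redder columns.

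Leaving out the 2 libraries with raised Xist RNA removes Treg-sufficient replicate 2, a low library for these genes, and Treg-depleted replicate 2, a high one. The median over the members was then -0.27 between conditions, with 22 of 28 below 0; leaving out Treg-sufficient replicate 2 alone gave -0.20, and leaving out Treg-depleted replicate 2 alone gave -0.22. An unadjusted p under 0.05 was reached by 14 members, all lower in Treg-depleted libraries, against 5.49% of all genes in that direction. None of the 28 passed after adjustment (smallest adjusted p = 0.51 by edgeR). The 14 were Fdft1, Mvk, Mvd, Srebf1, Sqle, Idi1, Acat2, Stard4, Hmgcs1, Fdps, Pmvk, Dhcr7, Nsdhl and Cyp51. Without those libraries Hmgcs1 had a log2 fold change of -0.51 ± 0.15, Sqle -0.53 ± 0.15 and Srebf1 -0.38 ± 0.10. Experiment 1 is then 1 library against 1, so its own median of -0.44 rests on a single pair.

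Other gene groups also differed across these libraries. Summed cell cycle genes (10 genes, Mki67 among them) stood at 2168, 1545, 2915 and 2446 CPM in Treg-sufficient and at 401, 845, 2208 and 2622 CPM in Treg-depleted libraries. All 10 had a log2 fold change below 0 between conditions, with a median of -0.85. Within experiments the cell cycle median was -1.63 in experiment 1 and -0.19 in experiment 2. The sterol members' medians were -0.05 and -0.22. Summed immediate early and stress genes (11 genes) stood at 2376, 877, 2751 and 3513 CPM against 9004, 6581, 5191 and 4161 CPM, with no overlap. Markers of upper differentiated epidermis summed to 2216, 1888, 707.6 and 969.6 CPM against 1334, 1081, 1242 and 869.95 CPM; of 7 tested, 7 had a log2 fold change below 0 in experiment 1 (median -1.15) and 6 one above 0 in experiment 2 (median 0.58). Sebaceous gland markers summed to 36.5 CPM in Treg-sufficient replicate 2 and 60.4 CPM in Treg-depleted replicate 2, and to between 13.6 and 30.8 CPM in the other 6 libraries. Of that list 6 genes were tested, and 5 had a log2 fold change above 0 between conditions (median 0.55). Mc5r, 1 of the 9 listed, was at most 0.504 CPM in any library, so the sums came mainly from the other sebocyte markers. The part of cell cycle, stress response, differentiated epidermis and sebaceous cells in the differences of the sterol genes was not tested.

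Ebp ran in opposite directions in the 2 experiments. It stood at 61.9, 64.3, 53.3 and 50.4 CPM in Treg-sufficient and at 87.2, 114.8, 41.0 and 49.4 CPM in Treg-depleted libraries, so the Treg-depleted libraries held the highest and the lowest values. In experiment 1 its log2 fold change was 0.68 ± 0.17 (edgeR unadjusted p = 0.0041, adjusted p = 0.146), the only member with an unadjusted p under 0.05 there, where 4.59% of all genes had one on the higher side. DESeq2 (adjusted p = 0.036) and edgeR with no filter on low counts (0.028) called it, as the only member, beside 4.37 and 4.17% of all genes by the same fits. In experiment 2 its log2 fold change was -0.20 ± 0.17. The difference of the effects was -0.88 ± 0.24 (edgeR unadjusted p = 0.0066, adjusted p = 0.505). Ebp was the only member with an unadjusted p under 0.05 for that difference, against 5.6% of all genes, and 0 members and 0% of genes passed after adjustment. Over the members the median difference was -0.18.

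Ebp is X-linked, as are Nsdhl and Mbtps2, and 2 libraries of experiment 1 differed in Xist RNA. Nsdhl, which removes a carboxyl group from sterol intermediates, stood at 53.1, 42.1, 48.7 and 50.5 CPM against 41.4, 51.5, 41.9 and 43.9 CPM (log2 fold change -0.12 ± 0.12). Mbtps2, the intramembrane protease that makes the final cut of the SREBPs, stood at 32.8, 36.9, 41.6 and 41.2 CPM against 37.8, 32.9, 38.0 and 42.1 CPM. In the library with 2713 CPM of Xist, Mbtps2 lay within the range of its group, Ebp was the highest of its group at 64.3 CPM and Nsdhl the lowest at 42.1 CPM.

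**Figure D5:**
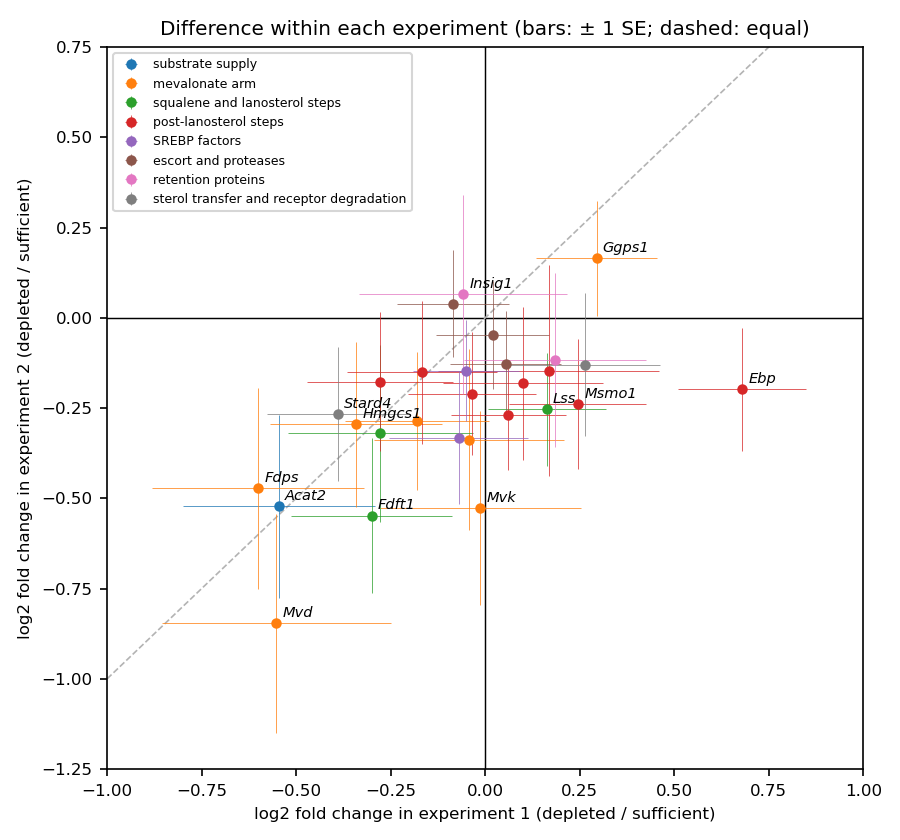
Log2 fold change of each member in experiment 1 (horizontal) and in experiment 2 (vertical), with bars of ± 1 standard error and a dashed line of equal effects. On the vertical axis 25 of 28 points lie below 0, while the points spread to both sides of 0 on the horizontal axis; Ebp lies farthest to the right at 0.68 and -0.20.

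Between experiments (experiment 2 over experiment 1, with the condition as a term), 0 of 28 members and 1.62% of all genes passed the adjusted threshold. An unadjusted p under 0.05 was reached by 5 members and by 22% of all genes. Dhcr7 (log2 fold change 0.49 ± 0.13), Acat2 (0.46 ± 0.17) and Stard4 (0.35 ± 0.13) had higher levels in experiment 2, and Ebp (-0.72 ± 0.19) and Mylip (-0.59 ± 0.15) lower ones, with edgeR adjusted p of 0.071 to 0.162. DESeq2 called Ebp, Dhcr7 and Mylip (3 of 28, beside 13.1% of all genes), and edgeR with no filter on low counts called these and Acat2 (4 of 28, beside 8.85%). Without Treg-sufficient replicate 1, Mylip passed (edgeR adjusted p = 0.038), as did 3.85% of all genes. The experiments differ in an unknown number of ways, which cannot be told apart.

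For neighbouring pathways the condition comparison could hold no calls, because 0% of the 16495 genes tested passed. Directions and medians are given for 7 lists of related genes. Of 7 other sterol synthesis genes 6 had a log2 fold change below 0 (median -0.18), and of 13 tested fatty acid synthesis genes under SREBP-1 11 did (median -0.14). Scd2, a stearoyl-CoA desaturase and the most abundant of the latter, stood at 826, 593, 988 and 1062 CPM against 315, 400.1, 762 and 874 CPM, a log2 fold change of -0.66 ± 0.18 (edgeR adjusted p = 0.686). The groups overlapped, and Treg-depleted replicates 1 and 2 were the lowest of the 8. For 15 genes of sterol uptake and transport the count below 0 was 9 (median -0.03), for 11 isoprenoid branch genes 6 (-0.02), for 9 tested LXR and oxysterol genes 5 (-0.04), for 7 tested genes of epidermal sterol and lipid handling 4 (-0.06), and for 9 genes of SREBP turnover and sterol sensing 1 (0.03). Apoe, the most abundant of the LXR list and an acceptor of exported cholesterol, had a log2 fold change of -0.09 ± 0.22. Between experiments 2 genes of these lists passed, beside 1.62% of all genes, and were higher in experiment 2. They were the fatty acid desaturase Fads2 (1.99 ± 0.29, edgeR adjusted p = 0.0439) and Lbr, a nuclear envelope protein with sterol reductase activity (0.60 ± 0.10, edgeR adjusted p = 0.0446).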

How the data were processed

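RNA of 8 libraries of sorted mouse cells was sequenced, in 2 conditions of 4. Library preparation used RNeasy columns and then a strand-keeping, poly(A)-selecting kit (TruSeq Stranded mRNA), per the labels' protocols. The submitters' processing notes name the build GRCm38.p4 and the tools TopHat2 (version 2), HTSeq, SAMtools and DESeq2. Not given in the sources used here are each tool's role, the annotation release and the strand setting. The authors deposited raw read counts per gene with no normalization, 22330729 to 29975347 per library. Tallies of reads in no gene (6.63 to 10.8% of reads listed), in several genes (2.72 to 3.01%) and in several places (26.2 to 30.6%) were left out.

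GENCODE M21 (GRCm38) paired 45229 of 46078 identifiers with a symbol. Tests used edgeR 4.0.16 (R 4.3.3): filterByExpr (minimum count 10), TMM factors, its quasi-likelihood F-test, and p-values adjusted by Benjamini-Hochberg across 16495 genes with a threshold of 0.05. The condition and experiment terms came from 1 model (5 residual degrees of freedom), the effects within experiments and their difference from a model of 4 groups of 2 (4 residual degrees of freedom). Standard errors (SE) are the log2 fold change over the square root of F. The steps were tested on simulated data. DESeq2 1.42.0, limma-voom (limma 3.58.1), other scalings and filters, and left-out libraries were the alternatives.

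Members and lists were chosen with earlier results of these data known. Values in every library are given for Hmgcs1, Idi1, Sqle, Insig1, Srebf1, Srebf2, Stard4 and Mylip, for members with an unadjusted p under 0.05 in any comparison, for the 3 highest and 3 lowest log2 fold changes and for X-linked members. Promoters came from the RefSeq table of GRCm38.p6.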

Additional observations from a re-analysis of the deposited data

Results flagged for a closer look

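In each condition the 4 libraries of each member were checked for a highest or lowest value far from the others (Dixon's criterion at 95%). Of 56 groups 7 met it, where the criterion's nominal rate is about 1 in 20. The groups share libraries, each mixes the 2 experiments, and the check was not run over all genes. The count therefore cannot show an excess in these genes. Treg-sufficient replicate 2 was the low library for Hmgcs1 (281 CPM, the others 378 to 394), Lss (70.3, the others 93.7 to 97.0) and Stard4 (58.2, the others 85.4 to 89.3). Treg-depleted replicate 1 was the low library for Hmgcs1 (213 CPM, the others 304 to 320.3) and Cyp51 (86.6, the others 123 to 128). Treg-depleted replicate 2 was the high library for Mvk (43.1 CPM, the others 24.8 to 26.9), and Treg-sufficient replicate 1 for Hsd17b7 (43.5 CPM, the others 33.9 to 34.4). All 7 were libraries of experiment 1.

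Ebp was higher in both Treg-depleted libraries of experiment 1 and lower in both of experiment 2. In experiment 2 the gap was narrow, with Treg-depleted replicate 4 at 49.4 CPM and Treg-sufficient replicate 4 at 50.4 CPM. Of the 28 members 1 showed such opposite orders. The share of all genes that did was not counted, so the order cannot be called unusual. For Ebp, the effect in experiment 2 minus that in experiment 1 was -0.88 on the log2 scale. It did not pass edgeR's test of the difference after adjustment (adjusted p = 0.505).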

How the results depend on the processing

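Between conditions, the members' median stayed below 0 under all alternatives run, -0.27 without the 2 libraries with raised Xist RNA. Insig1 turned to -0.0056 with RLE factors, -0.0057 with DESeq2, -0.0070 with no filter on low counts, -0.0038 with upper-quartile factors, -0.0010 with a mean count of at least 50 and -0.084 without the Xist libraries, and Mbtps2 to 0.020 without them. With single libraries left out, Insig1 ran from -0.16 to 0.22, Mbtps2 from -0.073 to 0.020, Mylip from -0.058 to 0.17 and Sqle in experiment 1 from -0.73 to 0.020.

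Genes called by DESeq2 numbered 84 (conditions), 721 (experiment 1), 1 (experiment 2), 182 (difference of effects) and 2167 (between experiments), and by edgeR with no filter on low counts 820, 1152, 132, 534 and 2443. Members called were 3 between conditions with no filter, 1 in experiment 1 with DESeq2, no filter or the Xist libraries left out (Sqle in the last), and 3 with DESeq2 and 4 with no filter between experiments. Without the Xist libraries edgeR called 487 genes in experiment 1, 89 for the difference of effects and 2 between experiments; the members' median was -0.44 in experiment 1 and 0.15 for the difference, with 11 members below 0. With only its own 4 libraries, experiment 1 gave 0 calls (1301 genes at an unadjusted p under 0.05). The cause of these differences was not tested. Without the Xist libraries experiment 1 is 1 library against 1, so its calls, Sqle among them, rest on a single pair. The pair left out had Sqle higher in the Treg-depleted library (replicate 2, 119.6 CPM) than in the Treg-sufficient one (replicate 2, 98.4 CPM).

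Leaving out single libraries gave 0 to 442 genes in experiment 1, 0 to 9 for the difference of effects and 0 to 651 between experiments (0 to 1 members, and 7 to 13 members below 0). The members' median then ran from -0.24 to 0.049 in experiment 1 and from -0.29 to 0.017 for the difference, with 13 to 25 members below 0. A group left with 1 library is assumed to vary like the others.

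The letters A to D in the titles were not taken to pair the samples. Deviations of same-lettered libraries from their condition's mean correlated at 0.18, 0.13, 0.09 and 0.31 across genes, values that also carry the difference between experiments, and deviations within experiments at -0.095 (experiment 1) and -0.12 (experiment 2). With the letter as a replicate block 0 genes and 0 members were called, and the members' median was -0.11 with 22 below 0. Depth limits the low members: at its lowest count of 130, counting error in Fdps is 8.77%, against a spread of 7.36% (coefficient of variation) over its Treg-depleted libraries, and in Tm7sf2 6.17% against 9.94%.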
